A study of Saccharomyces cerevisiae with 2 samples.

Results

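The regions described here are the 5.8S rRNA, which is 158 nt long, and the 5′ part of the 25S rRNA, divided into domain I (nucleotides 1 to 650) and domain II (nucleotides 651 to 1430). They are defined by position and not by coverage, although earlier results of these data were known when they were chosen. Together they make up 1588 of the 6858 nucleotides of the 35S pre-rRNA. The deposited files hold no domain annotation, so the domain limits are working limits, and moving the one between the domains is among the alternatives tried below. RNA bound to Pol5, a yeast protein needed for ribosome assembly, was mapped by crosslinking and analysis of cDNA (CRAC). In this method RNA is crosslinked to a tagged protein by UV light, trimmed with ribonuclease, purified with the protein under denaturing conditions and sequenced. There were 2 libraries, both from exponentially growing BY4741 cells crosslinked at 254 nm. In Pol5-HTP cells the genomic copy of Pol5 carried a C-terminal His-Tev-ProtA tag. The control was labelled wild type by genotype, although its title reads WT-HTP, and it is called WT here. Each condition was represented by 1 library, so differences between them have no replicate check and no p-value is given.

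The 5.8S and 25S rRNAs are cut from the same precursor and end up in the large ribosomal subunit, where the 5.8S rRNA is base-paired to domain I of the 25S rRNA. Before processing, the 5.8S sequence is flanked by the internal transcribed spacers ITS1 and ITS2, which are removed by endonucleases and exonucleases. Domain I and the 5.8S rRNA lie near the exit of the tunnel through which new proteins leave the ribosome, and domain II carries the base of the ribosomal stalk, where translation factors bind.

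The sequences on which the results turn are given here as listed with the deposited coverage for RDN58-2 and RDN25-2, in the sense of the transcript and with T for U. Both genes lie on chromosome XII in the RefSeq annotation of R64, and the lengths of both match it. The files name no genome build, so positions are counted from the first nucleotide of each rRNA. Capitals in the 5.8S rRNA mark nucleotides 111 to 153, which are bounded by the steepest rise and the steepest fall of coverage in both libraries. In domain I they mark the stretch from nucleotide 155 to 208, where Pol5-HTP exceeded WT by the same rule as in domain II, and the WT site from 440 to 477. In domain II they mark nucleotides 989 to 1030 around the highest Pol5-HTP value and nucleotides 1113 to 1175, the longest stretch in which every nucleotide of Pol5-HTP was at least 2 times WT, with 10 normalized hits added to both. The 5.8S rRNA is given whole, and the stretches of the 25S rRNA with 10 nt on either side.
5.8S rRNA: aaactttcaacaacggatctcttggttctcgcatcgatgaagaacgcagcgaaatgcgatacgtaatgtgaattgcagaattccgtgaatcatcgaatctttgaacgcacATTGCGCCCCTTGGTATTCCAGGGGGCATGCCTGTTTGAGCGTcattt
Domain I, nucleotides 145 to 218: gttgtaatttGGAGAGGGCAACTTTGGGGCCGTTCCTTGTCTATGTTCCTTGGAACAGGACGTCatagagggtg
Domain I, nucleotides 430 to 487: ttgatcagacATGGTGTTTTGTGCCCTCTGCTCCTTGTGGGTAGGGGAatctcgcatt
Domain II, nucleotides 979 to 1040: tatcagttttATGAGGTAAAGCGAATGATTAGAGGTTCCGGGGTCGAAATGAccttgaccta
Domain II, nucleotides 1103 to 1185: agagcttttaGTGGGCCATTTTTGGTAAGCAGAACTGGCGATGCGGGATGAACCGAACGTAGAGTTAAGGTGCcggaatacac

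Values are hits per 1000000 mapped reads at each nucleotide (normalized hits), as the authors scaled them. One read was worth 2.16 normalized hits in WT against 0.570 in Pol5-HTP, so the Pol5-HTP profile was read with the finer step. The read totals that these steps imply, 463950 and 1755048, are not those of the deposited counts per RNA class, 1092199 and 1073688. Ratios of Pol5-HTP over WT therefore depend on the scaling. Scaling to the class totals multiplies Pol5-HTP over WT by 3.85 before the 10 normalized hits that all ratios between the libraries have added to each side. The median log2 ratio over the whole 35S pre-rRNA then moves from 0.11 to 1.92. Comparisons between positions of the same library do not depend on it and are given first.

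The 5.8S rRNA was the most heavily covered of the 3 regions in both libraries. Its mean was 3764 normalized hits in WT against 2700 in Pol5-HTP. The means of domain I were 865 and 501, and those of domain II were 498 and 465. In WT the 5.8S mean was thus 4.35 times that of domain I (95% counting interval 4.203 to 4.51) and 7.55 times that of domain II (7.27 to 7.85). In Pol5-HTP it was 5.39 times that of domain I (5.26 to 5.52) and 5.805 times that of domain II (5.67 to 5.95). With medians in place of means, the ratio to domain II was 7.48 in WT and 8.23 in Pol5-HTP, so the order of the libraries turned, while the ratio to domain I was 4.41 and 7.83. The domains themselves differed in WT, where domain I was 1.73 times domain II (1.67 to 1.80), but were nearly level in Pol5-HTP, at 1.08 times (1.05 to 1.10). These intervals rest on the smallest number of reads that could give each profile, from 4720 to 13872 per region. They cover counting error only and assume that a read covers an unbroken stretch. Set against the 18S rRNA of the same library, the 5.8S mean was 3.69 times as high in WT and 5.07 times as high in Pol5-HTP. Set against the rest of the 25S rRNA, it was higher in WT, at 2.001 times, than in Pol5-HTP, at 1.45 times. With medians the ratios to the rest of the 25S rRNA were larger, 6.80 in WT and 5.99 in Pol5-HTP, and those to the 18S rRNA were 6.32 and 8.47.

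Apart from its last nucleotides, the 5.8S rRNA had its lowest coverage toward the 5′ end and its summit just after nucleotide 111 in both libraries. Nucleotides 1 to 47 had a mean of 1482 normalized hits in WT against 1300 in Pol5-HTP, while over 48 to 110 the means were 3264 and 3027, with a local summit at nucleotide 85 of 5376 in WT and 4372 in Pol5-HTP. As deposited, WT was thus 1.14 and 1.08 times Pol5-HTP over these segments, although Pol5-HTP was 1.49 times WT at nucleotide 110. With the class totals Pol5-HTP was the higher library, with log2 ratios of 1.75 over nucleotides 1 to 50 and 1.73 over 51 to 100. At nucleotide 111 the WT library jumped from 1880 to 5580 normalized hits and the Pol5-HTP library from 2814 to 4161. This was the largest rise within the 3 regions in each library, 1717 reads in WT and 2363 in Pol5-HTP. The highest values followed at once, 8007 at nucleotide 117 in WT and 4795 at nucleotide 115 in Pol5-HTP.

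Within the block from nucleotide 111 to 153 the profiles had different shapes. In WT the block was a plateau, with a mean from nucleotide 122 to 153 equal to 97.5% of that from 111 to 121. In Pol5-HTP the corresponding value was 77.3%, and coverage fell after nucleotide 121, where 1356 of 8088 reads (16.8%) were lost in 1 step. At the same place WT lost 204 of 3674 reads (5.55%). The block held 52.8% of the 5.8S hits in WT and 38.7% in Pol5-HTP. After nucleotide 153, coverage fell by 1550 reads in WT, 54.9% of those present, and by 2122 reads in Pol5-HTP, 38.3% of those present.

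**Figure D1:**
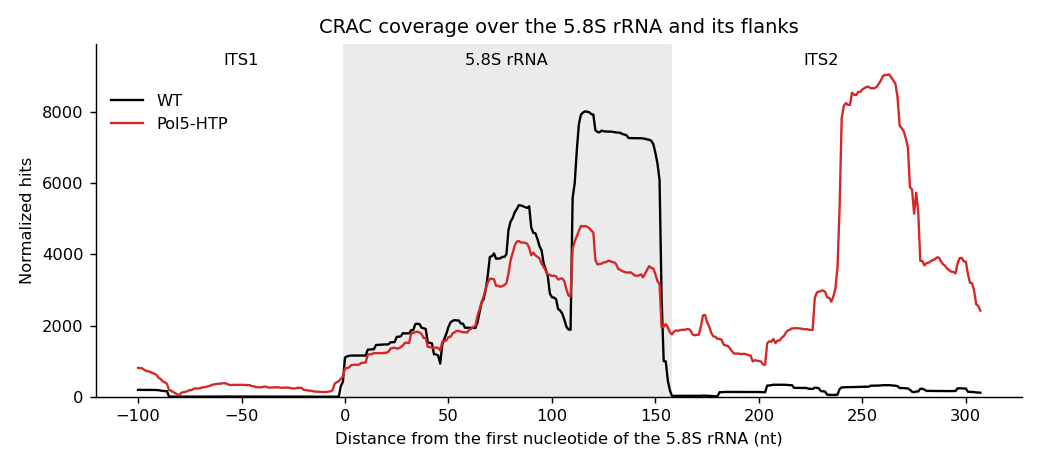
Normalized hits in WT (black) and Pol5-HTP (red) over the 5.8S rRNA (shaded), the last 100 nt of ITS1 and the first 150 nt of ITS2, against the distance from the first nucleotide of the 5.8S rRNA. Both profiles rise sharply at nucleotide 111 and fall after nucleotide 153. Only the Pol5-HTP profile keeps a similar height from the last nucleotide of the 5.8S rRNA (1810 normalized hits) to the first of ITS2 (1750). Further into ITS2 it climbs above its 5.8S summit of 4795, to 9046 normalized hits at a distance of 263 nt, where WT has 325.

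The libraries differed at the last nucleotides of the 5.8S rRNA and beyond them. From nucleotide 155 to 158 WT dropped from 1000 to 181 normalized hits, whereas Pol5-HTP changed from 1966 to 1810. At the first nucleotide of ITS2, WT had 12 reads (95% Poisson interval 6.20 to 21.0), or 25.9 normalized hits, and Pol5-HTP had 3071 reads (2963 to 3182), or 1750 normalized hits. Over the first 10 nt of ITS2 the mean was 0.661% of that over the last 10 nt of the 5.8S rRNA in WT and 69.4% in Pol5-HTP. In Pol5-HTP 96.7% of the coverage at nucleotide 158 was present at the next nucleotide, and in WT 14.3%. The percentages are taken within a library and are not altered by the scaling.

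The 5′ ends showed the same order. Over the last 10 nt of ITS1 the mean was 6.36% of that over the first 10 nt of the 5.8S rRNA in WT and 34.3% in Pol5-HTP. WT had 1 read at the third nucleotide before the 5.8S rRNA, 139 reads at the second, 197 at the first and 510 at nucleotide 1 of the 5.8S rRNA. In Pol5-HTP, 767, 887, 987 and 1395 reads covered these positions, and coverage had already risen from 324 to 644 reads at the fifth nucleotide before the 5.8S rRNA. At the 5′ end of the 25S rRNA, the last 10 nt of ITS2 had 15.3% of the mean of the first 10 nt of domain I in WT and 45.0% in Pol5-HTP. In WT 73 reads covered nucleotides 1 and 2 of the 25S rRNA and 317 reads covered nucleotide 3, whereas in Pol5-HTP the counts were 594, 615 and 771. By these means over 10 nt, the 3′ end of the 5.8S rRNA had the lowest spacer share of the 3 mature ends in WT and the highest in Pol5-HTP. By the 2 nucleotides at each boundary it was again the lowest in WT, at 14.3% against 38.6% at the 5′ end of the 5.8S rRNA and 60.3% at that of the 25S rRNA. In Pol5-HTP its 96.7% lay between 70.8% and 97.6% at these ends.

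**Figure D2:**
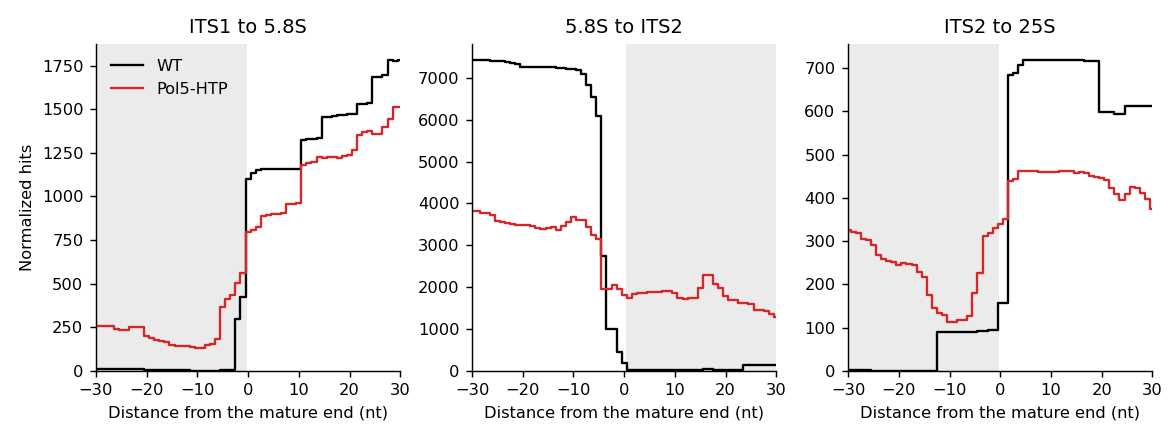
Normalized hits within 30 nt of the 3 mature ends, in WT (black) and Pol5-HTP (red), with the spacer shaded and the distance counted from the terminal nucleotide of the mature rRNA. Each panel has its own vertical scale. At the end between 5.8S rRNA and ITS2, WT falls from 181 to 25.9 normalized hits, and Pol5-HTP stays between 1810 and 1750.

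As deposited, the log2 ratio of Pol5-HTP over WT, with 10 normalized hits added to each mean, was -0.48 for the 5.8S rRNA (95% counting interval -0.52 to -0.43), -0.77 for domain I (-0.82 to -0.73) and -0.10 for domain II (-0.15 to -0.05). With the class totals all 3 were positive, at 1.46, 1.14 and 1.80. Relative to the median of the 35S pre-rRNA the values were -0.59, -0.89 and -0.21. The sign of the 5.8S and domain II values also turned when medians replaced means, to 0.18 and 0.04. The direction of none of the 3 is therefore settled across scalings. A nucleotide was called higher where Pol5-HTP was at least 2 times WT after 10 was added to both, and lower where WT was at least 2 times Pol5-HTP. Of the 1588 nucleotides, 301 (19.0%) were higher, against a background of 36% over the 35S pre-rRNA, and 440 (27.7%) were lower, against 24.5%. In the 5.8S rRNA only 3 nucleotides were higher, those from 156 to 158 at its 3′ end, and 16 were lower, all between 133 and 152. Domain I had 68 higher (10.5%) and 250 lower (38.5%) nucleotides, and domain II had 230 (29.5%) and 174 (22.3%). With the class totals, 126, 384 and 568 nucleotides of the 3 regions were higher and 0 were lower. The share over the 35S pre-rRNA is not given for this scaling, under which the median log2 ratio of the whole transcript was 1.92. These counts are therefore not a result about the 3 regions.

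The profiles of the libraries resembled each other most in the 5.8S rRNA. Across its 158 nucleotides Pearson's r was 0.86 and Spearman's rho 0.90. Across the 650 nucleotides of domain I they were 0.72 and 0.34, and across the 780 of domain II 0.48 and 0.62. Neighbouring nucleotides share reads and are not independent, so these values are descriptions.

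Nucleotides that reached 10% of their library's highest 35S value were joined into sites across gaps of up to 10 nt. This threshold was 1960 normalized hits for the WT library and 2057 for the Pol5-HTP library. WT had 4 sites in these regions. In the 5.8S rRNA, a site of 3 nt had its summit at nucleotide 36 with 2050 normalized hits, and another extended from nucleotide 52 to 154. In domain I the sites ran from nucleotide 440 to 477 and from 558 to 565. Pol5-HTP had 1 site, from nucleotide 65 to 153 of the 5.8S rRNA, where its mean of 3658 normalized hits was below the 5467 of WT. With the class totals Pol5-HTP is the higher library there, as in every window described below. Neither library had a site in domain II.

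The site from nucleotide 440 to 477 was the summit of domain I in both libraries. WT reached 4863 normalized hits (2256 reads) at nucleotide 452, where Pol5-HTP had 2003 (3515 reads), and Pol5-HTP reached 2009 at nucleotide 454. In both libraries the site opened with a step at nucleotide 440, where WT coverage rose from 953 to 3716 normalized hits, and Pol5-HTP coverage from 598 to 1262. This was the second largest rise of each library in the 3 regions. As deposited, the mean over the site was 2.67 times as high in WT as in Pol5-HTP. The second domain I site of WT had its summit at nucleotide 560, with 2205 normalized hits against 606 in Pol5-HTP. Just below the threshold, WT had 1789 normalized hits at nucleotide 254, a position chosen after its values were seen, and Pol5-HTP had 488.

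**Figure D3:**
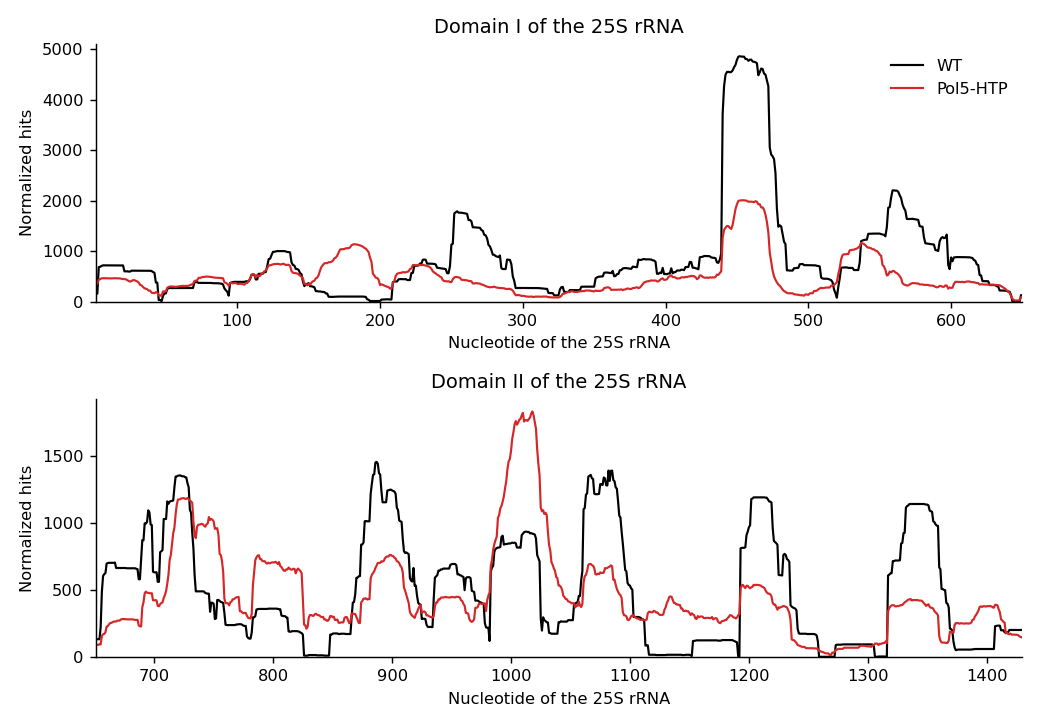
Normalized hits in WT (black) and Pol5-HTP (red) at each nucleotide of domain I (top) and domain II (bottom) of the 25S rRNA, each panel with its own vertical scale. WT is the taller profile around nucleotides 452 and 560, and Pol5-HTP around nucleotides 182 and 1018.

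Domain I had 1 stretch of at least 20 nt in which every nucleotide was higher in Pol5-HTP, from nucleotide 155 to 208. Stretches of this kind were defined after the values were seen. The mean over these 54 nt was 776 normalized hits in Pol5-HTP against 90.1 in WT, a ratio of 7.85. Pol5-HTP reached 1136 normalized hits (1994 reads) at nucleotide 182, which is 2.86 times its median over domain I. WT had 101 (47 reads) there, or 0.163 times its own median. At nucleotide 193 WT was down to 5 reads, its lowest count in the stretch, and Pol5-HTP still had 1529. The stretch was therefore a local summit in one library and a trough in the other. The sequence is 55.6% G and C, against 47.1% for domain I as a whole. The overlapping window from nucleotide 151 to 200 had the highest log2 ratio among all 33 windows of up to 50 nt tiled over the regions, 2.74 as deposited and 4.53 with the class totals.

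In domain II, 3 such stretches were found. The first ran from nucleotide 807 to 847, with as few as 4 WT reads at a nucleotide and means of 450 normalized hits in Pol5-HTP against 109 in WT. The second, from 1113 to 1175, had means of 332 and 56.9, a ratio of 5.11, and WT had as few as 3 reads at a nucleotide within it. The third ran from 1373 to 1406, with means of 308 and 56.4. In none of the 3 did Pol5-HTP rise to 2 times its own median over domain II, the highest being 671 normalized hits at nucleotide 807 against a median of 378.

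The highest Pol5-HTP value of domain II lay elsewhere. At nucleotide 1018 Pol5-HTP had 1834 normalized hits (3219 reads), 4.86 times its median over the domain. WT had 920 (427 reads) there, which was also above its own median of 366. The mean from nucleotide 989 to 1030 was 1501 normalized hits in Pol5-HTP against 777 in WT, a ratio of 1.92. This stretch is a site only when the threshold is lowered to 5%. The highest WT value of domain II was 1457 normalized hits at nucleotide 887, where Pol5-HTP had 681.

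Stretches of at least 20 nt that were lower in Pol5-HTP were more numerous, 5 in domain I and 3 in domain II, and ranged from 20 to 69 nt. Stretches of either direction were not counted over the rest of the 35S pre-rRNA, so their numbers are not a result about the 3 regions. Per nucleotide, 36% of the whole 35S pre-rRNA was higher in Pol5-HTP and 24.5% lower. The longest ran from nucleotide 440 to 508 and held the summit of domain I. The largest ratio of WT over Pol5-HTP among them, 3.53, was found from nucleotide 250 to 296, with 1195 normalized hits in WT against 331 in Pol5-HTP. In all 8 of them WT had at least 103 reads at each nucleotide. With the class totals all 8 had a log2 ratio above 0, the smallest being 0.09 over nucleotides 250 to 296. The 4 higher stretches stayed positive under this scaling, and had log2 ratios from 1.80 to 2.83 when both libraries were given the same 35S total.

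Over the 33 windows the log2 ratio ranged from -1.85 to 2.74 as deposited. In the 5.8S rRNA all 4 windows were below 0, from -0.76 at nucleotides 101 to 150 to -0.18 at nucleotides 1 to 50. In domain I, 10 of 13 windows were below 0, the lowest being that from 551 to 600 with -1.85. Its means were 1491 normalized hits in WT against 406 in Pol5-HTP. In domain II, 8 of 16 were below 0, from -1.22 at nucleotides 651 to 700 to a highest value of 1.76 at nucleotides 1101 to 1150. With the class totals all 33 were above 0.

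**Figure D4:**
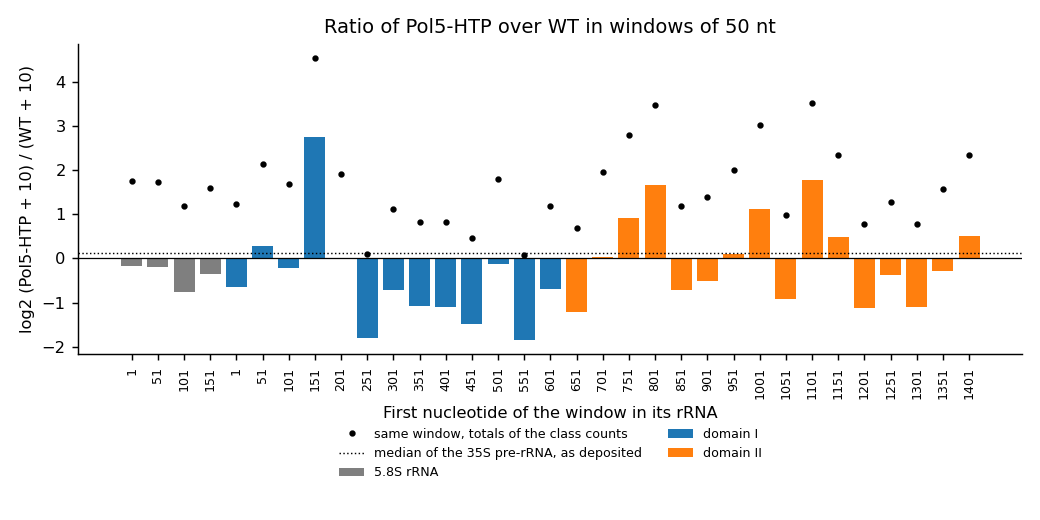
Log2 ratio of Pol5-HTP over WT (10 normalized hits added to each mean) in windows of 50 nt, or the remainder at the 3′ end of the 5.8S rRNA and of domain II, labelled by their first nucleotide. Bars are values as deposited and points are the same windows scaled to the class totals. The window at nucleotide 151 of domain I is the highest, at 2.74, and that at nucleotide 551 the lowest, at -1.85.

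Both libraries had their lowest window in the same part of domain II. The window from nucleotide 1251 to 1300 had the lowest mean of all 33 in each, 77.4 normalized hits in WT against 57.0 in Pol5-HTP. WT had no reads from nucleotide 1259 to 1272, where Pol5-HTP had 22 to 77 reads. WT was also at 0 from nucleotide 643 to 648 and from 1306 to 1308, so 23 nucleotides of the 3 regions had no WT read, which allows up to 6.47 normalized hits (3 reads) at each. In the 5.8S rRNA no nucleotide fell below 181 normalized hits in WT or 795 in Pol5-HTP.

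The positions at which coverage rose were partly shared. Of the 10 largest rises between neighbouring nucleotides in each library, 5 were shared, and of the 10 largest falls 3 were. The shared rises lay at nucleotides 1, 80 and 111 of the 5.8S rRNA and at nucleotides 440 and 1317 of the 25S rRNA. Rises between a C and a following A, searched on the transcript strand as the letters CA, made up 31.2% of all reads gained in WT and 22.8% in Pol5-HTP, although CA stands at 4.41% of the positions. Without nucleotides 111 and 440 the shares were 16.3% and 14.6%. Rises at TA made up 8.75% and 12.5%, against 5.16% of the positions, and rises after G 13.5% and 13.9%, against 28.8%. Rises after A made up 22.9% in WT and 27.7% in Pol5-HTP, against 27.5% of the positions. The ribonuclease mixture used to trim the RNA cuts after C, U or G, and RNase A is known to prefer a following A. Whether trimming set the places of the rises was not tested.

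Since the 5.8S rRNA pairs with the 25S rRNA, uninterrupted complementary runs were searched between it and nucleotides 1 to 1430 of the 25S rRNA. The longest was 10 nt, and there was 1 such run, between nucleotides 4 to 13 of the 5.8S rRNA and 410 to 419 of domain I. It is shown because it joins the regions described here.
5.8S rRNA, nucleotides 4 to 13: ctttcaacaa
Domain I, nucleotides 410 to 419: ttgttgaaag
Coverage of the 5.8S strand of this run was 1191 normalized hits in WT against 974 in Pol5-HTP, while the 25S strand had 679 and 488. Both strands were covered in both libraries, at levels below the means of the 5.8S rRNA and of domain I in the same library. A match of this kind describes the letters and is not evidence of pairing in the crosslinked RNA.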

How the data were processed

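CRAC libraries of Pol5-HTP and WT cells (taken here as untagged) were sequenced by the authors, who removed barcodes, merged identical sequences, filtered the reads with Flexbar and mapped them to the S288C genome with Bowtie 2 (version 2.3.4.2 in the submitters' processing notes, while the methods name another). The authors deposited the coverage signal per nucleotide of the RDN37-2 copy in hits per 1000000 mapped reads, and counts of reads in 7 RNA classes without normalization. How reads matching several rDNA copies were placed is not given in the sources used here. The files hold 6862 rows, and 4 rows that repeat a boundary nucleotide were left out.

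From the coverage, the value of 1 read was taken as the smallest step, which gave whole reads at 100% of the positions (tolerance 0.01 reads). The sum of all rises, plus the first value, is the smallest number of reads that can give a profile and was used for the intervals. A read counts at every nucleotide it covers. Region means, ratios, windows, sites and steps were computed with Python 3.11.15, numpy 2.4.6, pandas 2.3.3 and scipy 1.17.1, and the code was tested on simulated data. Plots were drawn with matplotlib 3.10.9. Named by rule were all sites, the highest nucleotide of each region, the extreme windows and the mature ends. Stretches of at least 20 nt and other single positions were added with their values in view. The regions and rules were chosen with earlier results of these data known. With 1 library per condition no test between conditions was run. Mutations at crosslinks were not analysed here.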

Additional observations from a re-analysis of the deposited data

How the results depend on the processing

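Of 44 alternative values, 23 stayed within the counting interval (ratios) or within 1.5 times (counts), and the others are given here. With both libraries set to the same 35S total, the log2 ratios were -0.63 for the 5.8S rRNA, -0.92 for domain I and -0.24 for domain II. Scaled to the totals of the class counts they turned to 1.46, 1.14 and 1.80, with 1078 higher and 0 lower nucleotides, since this scaling multiplies Pol5-HTP over WT by 3.85 before 10 normalized hits are added. Medians in place of means gave 0.18, -0.63 and 0.043, turning the first and the last. Leaving out 30 nt at each edge moved the 5.8S value to -0.32, adding 100 normalized hits moved domain I to -0.68, and a limit between the domains at nucleotide 700 moved domain II to -0.026. Adding 100 left 196 higher nucleotides, and a 4-fold threshold left 169 higher and 64 lower. At 5% of the maximum there were 10 WT and 7 Pol5-HTP sites. At 20%, and on running means of 11 nt, Pol5-HTP had 2 sites. Ratios relative to the median of the 35S pre-rRNA, chosen after seeing the data, gave 261 higher and 514 lower nucleotides. The matching shares over the 35S pre-rRNA are not given for these alternative counts, so they show only how the counts move with the setting. No paired analysis was possible because there was a single library for either condition, and for the same reason no library could be left out. The cause of these changes was not tested beyond the scaling. In domain II the median depth was 170 reads per nucleotide in WT, so ratios at its troughs rest on few reads.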
